A study of Mus musculus with 17 samples.

Results

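The MEK inhibitor was examined in mouse embryonic stem cells in which RAF was switched on. The comparison set 3 libraries of cells given the inhibitor together with 4-hydroxytamoxifen (MEKi_4OHT, clones a, b and c) against 3 libraries of cells given 4-hydroxytamoxifen alone (4OHT, the same 3 clones). These 6 libraries, of 17 in the series, were taken by their labelled treatment, and no measured value was used to choose them. Libraries of cells with PP1 and 4OHT (PP1_4OHT, n = 3), with the MEK inhibitor but no 4OHT (MEKi, n = 3) and of cells without either (DMSO, clones b and c, n = 2) gave the levels to set beside them.

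All groups were E14tg2a cells on a 129SV background that lacked their own Erk genes and carried instead a cDNA for a FLAG-tagged, PP1-sensitive ERK, together with a cRAF-ErT2 cassette that 4OHT activates. Cells grown with serum, LIF and 2 µM Chir99021 were moved 24 h before treatment to serum and LIF with the FGF receptor inhibitor PD173074 at 250 nM, so every group, DMSO included, carried that inhibitor. The dose of 4OHT was 250 nM for 2 h, that of the MEK inhibitor 1 µM and that of PP1, given to block that ERK, 2 µM. The code name of the MEK inhibitor is not spelled alike throughout the labels, and how long it was given without 4OHT is not clear from them. The cells are clones of 1 line and the kinase is a transgene product. The p-values measure the spread between libraries of these clones within groups, and nothing about other lines. RNA made in the last 15 min was marked with 5 mM ethynyl uridine and captured, so the values are levels of new RNA.

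RAF kinases phosphorylate MEK, MEK phosphorylates ERK, and ERK then phosphorylates transcription factors and other nuclear proteins. Genes that respond within minutes include the immediate early genes, which encode factors such as FOS and EGR, and the genes of Sprouty, Spred and dual-specificity phosphatase proteins, which restrain the same pathway. In mouse embryonic stem cells, ERK activity is known for moving cells out of the naive state, and MEK inhibitors are used in culture to hold them in it.

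Library totals were 9218144, 8853293 and 9275860 counts in MEKi_4OHT clones a, b and c, against 10349066, 7680990 and 9280691 in 4OHT clones a, b and c. Between libraries of a group, Pearson's r of log2 CPM across genes was 0.984 to 0.99 in MEKi_4OHT and 0.983 to 0.987 in 4OHT. The library of 4OHT clone b stood apart by its high-count loci. A set of 14 loci took 28.9% of its counts, against 12.4% to 16.1% in MEKi_4OHT and 9.38% and 13.1% in 4OHT clones a and c. These loci had a mean of at least 1000 counts. Their share of a library also had to correlate with that of Cdk8 at 0.95 or more over the 17 libraries. They were thus picked for varying together between libraries. The low end of CPM per Mb among 1426 long genes (the percentile 5 of genes spanning 150000 bases or more), a measure of background, was 9.35 in MEKi_4OHT clone b, against 4.83 and 2.98 in MEKi_4OHT clones a and c and 6.39, 3.69 and 2.85 in 4OHT clones a, b and c. Its part in the results was not tested, beyond the fits without each library. Of 12 embryonic stem cell markers none was under 1 CPM in either group, and their summed level was 3660 to 4060 CPM in MEKi_4OHT and 3350 to 3840 CPM in 4OHT. Of 15 fibroblast markers 12 were under 1 CPM in MEKi_4OHT and 11 in 4OHT, and of 11 markers of 2-cell-like cells 11 and 10 were. The fibroblast sum was 509 to 642 CPM in MEKi_4OHT and 472 to 634 CPM in 4OHT. Of 14 trophoblast markers only 4 were under 1 CPM in either group. Their sum was 3400 to 4040 CPM in MEKi_4OHT and 2840 to 8670 CPM in 4OHT, as high as that of the stem cell markers. Of the 11 tested trophoblast markers, 10 were left in the fit without the 14 high-count loci. Part of this sum can therefore come from those loci. A sum without them was not taken, so it is not read as a level of trophoblast RNA. Levels below are CPM (counts scaled to a common library size with TMM factors), and log2 fold changes are MEKi_4OHT over the other group ± SE. A gene was called at an adjusted p under 0.05 (edgeR quasi-likelihood test, Benjamini-Hochberg over 14907 genes). In bulk libraries, fewer cells making an RNA and less RNA per cell cannot be told apart.

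With the MEK inhibitor, new RNA of most genes that restrain ERK was below its level with 4OHT alone. That of the FOS and EGR genes and of Etv4 and Myc was far below it, in all 3 clones. Nanog, Prdm14, Kit, Lefty1 and a broad set of other genes were higher. Of the 14907 genes tested, 4233 (28.4%) were called higher and 4230 (28.4%) lower in MEKi_4OHT than in 4OHT. Counts for gene lists against 4OHT below are to be read beside these shares. At 2-fold or more, 1882 were higher and 1064 lower; at 8-fold or more, 66 were higher and 141 lower. Over all genes tested, the log2 fold change had a median of 0.06. Of the 8463 called genes, 8399 (99.2%) moved in 1 direction in all 3 clones. The libraries of the groups did not overlap in 9304 genes (62.4% of those tested), so separate groups alone do not set a gene apart. When libraries were scaled by their totals alone, that median was 0.40 and 5872 genes were called higher against 1465 lower, so the split between directions rests on the scaling, and small changes below are to be read against that shift.

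**Figure D1:**
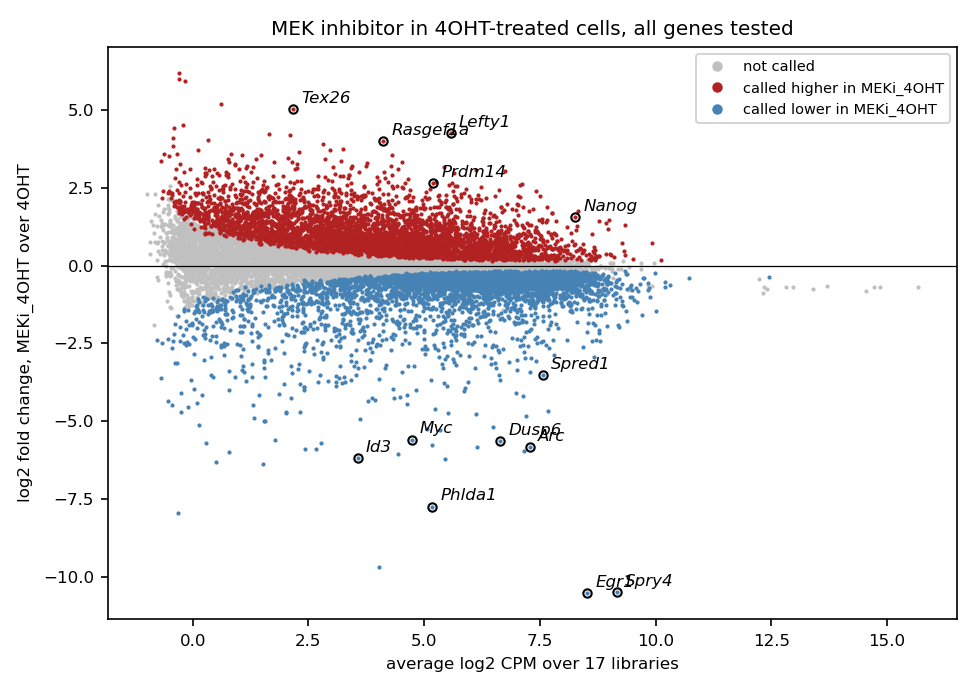
Log2 fold change of MEKi_4OHT over 4OHT (vertical axis) against the average log2 CPM over 17 libraries (horizontal axis), 1 point per gene tested, with called genes coloured by direction. The named points run from Spry4 at -10.49 and Egr1 at -10.53 up to Tex26 at 5.04, and the largest falls lie farther from 0 than the largest rises.

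Regulators that restrain the pathway were lower as a group: of 22 tested members, 16 were called lower and 1 higher (3 higher with library totals), with a median log2 fold change of -1.71, against 0.06 for all genes and 28.4% called lower. Rgs2 and Rgs4, with at most 7 and 1 counts in a library, were not tested. Dusp6, the cytoplasmic phosphatase that inactivates ERK (ENSMUSG00000019960.8, mm10 chr10:99263231-99267489), had 5.51, 5.89 and 5.2 CPM in MEKi_4OHT clones a, b and c, against 274, 265 and 293 CPM in 4OHT. The 2 groups were far apart, and the MEKi_4OHT libraries differed from each other by less than 1 CPM. Its log2 fold change was -5.65 ± 0.13, adjusted p = 2.56e-20. Dusp5, a nuclear phosphatase for ERK (ENSMUSG00000034765.6, mm10 chr19:53529109-53542431), had 4.18, 5.69 and 4.41 CPM in MEKi_4OHT and 182, 196 and 177 CPM in 4OHT (log2 fold change -5.28 ± 0.13, adjusted p = 6.97e-20). Spred1, a membrane protein that keeps RAS from activating RAF (ENSMUSG00000027351.14, mm10 chr2:117121374-117182279), had 39.8, 36.4 and 37.1 CPM in MEKi_4OHT and 444, 412 and 445 CPM in 4OHT (log2 fold change -3.52 ± 0.09, adjusted p = 6.97e-20). None of these groups overlapped.

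The promoters of these genes are shown because these 3 genes had some of the smallest adjusted p among feedback and immediate early genes with a RefSeq promoter entry. They are the 300 bases from 250 before to 50 after the annotated start in GRCm38.p6, all on the plus strand. Dusp6 is at chr10:99262981-99263280, Spred1 at chr2:117120821-117121120 and Dusp5 at chr19:53528895-53529194. Capitals mark the matches to the CArG box, the letters that SRF binds.
Dusp6: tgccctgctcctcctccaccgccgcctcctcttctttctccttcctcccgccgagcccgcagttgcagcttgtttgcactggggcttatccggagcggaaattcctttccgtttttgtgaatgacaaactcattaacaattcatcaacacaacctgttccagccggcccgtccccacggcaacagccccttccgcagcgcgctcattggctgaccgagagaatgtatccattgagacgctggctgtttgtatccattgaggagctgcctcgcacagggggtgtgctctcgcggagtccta
Spred1: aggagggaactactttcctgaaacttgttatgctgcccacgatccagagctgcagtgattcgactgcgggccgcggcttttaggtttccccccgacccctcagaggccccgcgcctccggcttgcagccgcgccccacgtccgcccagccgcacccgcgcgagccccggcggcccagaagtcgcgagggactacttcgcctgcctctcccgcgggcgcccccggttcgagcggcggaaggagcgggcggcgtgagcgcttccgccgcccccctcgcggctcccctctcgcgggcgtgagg
Dusp5: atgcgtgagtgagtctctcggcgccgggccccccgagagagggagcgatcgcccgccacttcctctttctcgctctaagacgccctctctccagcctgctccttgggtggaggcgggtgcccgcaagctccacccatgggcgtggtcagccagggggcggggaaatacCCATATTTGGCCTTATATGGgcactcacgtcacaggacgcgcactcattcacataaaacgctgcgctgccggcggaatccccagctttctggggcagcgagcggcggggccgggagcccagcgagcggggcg

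The Dusp5 window holds 2 CArG boxes, which start 82 and 72 bases before the start site, and the windows of Dusp6 and Spred1 hold none of the motifs searched. The searches covered both strands for the CArG box, the ETS site CCGGAAG, the EGR site GCGTGGGCG, the cAMP response element TGACGTCA, the AP-1 site TGANTCA and the TATA box TATAAA. The set counted was 46 genes of the feedback, EGR, AP-1 and other immediate early lists with a promoter entry, 32 of them called lower. Promoters on chromosome 18, which holds Egr1 and Spry4, were left out of it. The CArG box was found in 3 of the 46 (Dusp5, Egr2 and Srf), all called lower. In 32851 mouse promoters of this length it was found in 1.63%. A gene was counted if any of its promoter windows matched, while the percentages over all promoters are per window. The gene counts and these percentages are therefore not on the same footing. The ETS site was found in 3 of the 46 genes (8.86% of all promoters) and the EGR site in 2 (0.612%), all called lower. The cAMP response element was found in 6 (1.79%), 3 of them called lower. The TATA box was found in 6 (13.6%), 4 of them called lower, and the AP-1 site in none (7.81%). These splits are to be read beside the 32 of 46 called lower. A match describes letters in this window and says nothing about binding.

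Other phosphatases and inhibitors fell in the same way. Dusp4 had 4.94, 5.49 and 5.2 CPM in MEKi_4OHT and 120.3, 121 and 139 CPM in 4OHT (log2 fold change -4.60 ± 0.15, adjusted p = 6.91e-18). Dusp1, which acts on p38 and JNK as well as ERK, had 12.5, 12.4 and 17.1 CPM in MEKi_4OHT and 128, 148 and 139 CPM in 4OHT (log2 fold change -3.30 ± 0.17, adjusted p = 1.85e-12). In each pair every MEKi_4OHT library lay below every 4OHT library. Spry2, a Sprouty inhibitor of receptor signalling, had 13.2, 14.5 and 13.4 CPM in MEKi_4OHT and 105, 108 and 98.7 CPM in 4OHT (log2 fold change -2.92 ± 0.09, adjusted p = 7.04e-18). Also called lower were Trib1 (-3.30 ± 0.15), Il17rd (-1.80 ± 0.09), which encodes the receptor inhibitor Sef, Dusp16 (-1.61 ± 0.09), Errfi1 (-1.36 ± 0.12), an inhibitor of the EGF receptor, and the Spred1 relative Spred2 (-0.81 ± 0.07). Spry1 did not pass the test, with 9.69, 10.9 and 9.61 CPM in MEKi_4OHT and 9.83, 12.8 and 11.4 CPM in 4OHT (log2 fold change -0.16 ± 0.16, adjusted p = 0.414). Dusp8 was the member called higher (0.95 ± 0.36, adjusted p = 0.0256), at 5.32, 5.09 and 4.31 CPM in MEKi_4OHT and 2.19, 4.14 and 1.64 CPM in 4OHT. The call of Dusp8 was lost without any 1 of 4 libraries, MEKi_4OHT a or b or 4OHT a or c (adjusted p 0.063 to 0.15).

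Spry4, another Sprouty gene, showed one of the largest differences of all. It had 1.52, 2.2 and 1.08 CPM in MEKi_4OHT, against 2182, 2306 and 2473 CPM in 4OHT, 837, 729.7 and 758 CPM in PP1_4OHT and 107 and 120.4 CPM in DMSO clones b and c. No MEKi_4OHT library came near the lowest value of any other of these groups. The log2 fold change over 4OHT was -10.49 ± 0.14, adjusted p = 5.23e-25. The EGR factors, zinc finger proteins made within minutes of ERK activation, and their NAB corepressors were all called lower (5 of 5 tested, median -4.04). Egr1 had 0.95, 1.2 and 1.57 CPM in MEKi_4OHT and 1804, 1855 and 1899 CPM in 4OHT (log2 fold change -10.53 ± 0.20, adjusted p = 4.56e-18). For Egr3 the 3 MEKi_4OHT libraries held 3 counts together and the 4OHT libraries 2222, a ratio of 4OHT over MEKi_4OHT of 933 with an exact 95% interval of 319 to 4530 that covers counting error only. Egr2 had 0.57, 0.599 and 0.784 CPM in MEKi_4OHT and 7.05, 8.27 and 8.79 CPM in 4OHT (log2 fold change -3.60 ± 0.33, adjusted p = 2.46e-09).

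The corepressors Nab1 and Nab2 bind EGR proteins and damp their activity. Nab1 had 14.1, 11.8 and 17.1 CPM in MEKi_4OHT and 232, 238 and 235 CPM in 4OHT (log2 fold change -4.04 ± 0.13, adjusted p = 7.46e-18). Nab2 had 17.8, 15.2 and 17.9 CPM in MEKi_4OHT and 192, 237 and 258 CPM in 4OHT (log2 fold change -3.75 ± 0.11, adjusted p = 4.03e-18); it overlaps Stat6 and Nemp1, and the strand setting of the counting is not given, so its reads are uncertain. Both groups were fully separated for each corepressor.

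**Figure D2:**
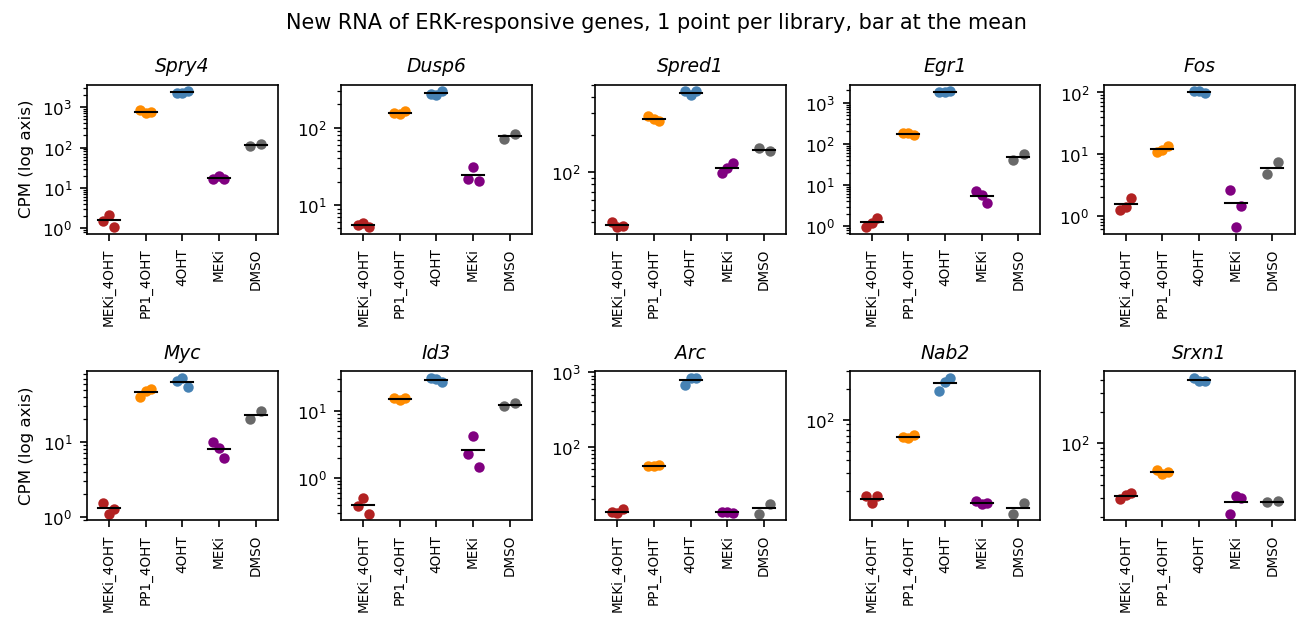
New RNA of 10 ERK-responsive genes in CPM (vertical log axis), 1 point per library and a bar at the group mean, for MEKi_4OHT, PP1_4OHT, 4OHT, MEKi and DMSO (horizontal axis). MEKi_4OHT lies below 4OHT for all 10 genes, and for Spry4, Dusp6, Spred1, Egr1, Fos, Myc and Id3 every MEKi_4OHT library also lies below every DMSO library.

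AP-1 proteins are dimers of FOS and JUN family members. Of 12 tested members of the AP-1 and ATF list, 8 were called lower and 2 higher (median -2.39). Fos had 1.24, 1.4 and 1.96 CPM in MEKi_4OHT and 104, 105 and 98.4 CPM in 4OHT (log2 fold change -6.05 ± 0.21, adjusted p = 5.43e-17). Fosl2 had 2.47, 4.59 and 2.06 CPM in MEKi_4OHT and 241, 233 and 207 CPM in 4OHT (log2 fold change -6.22 ± 0.21, adjusted p = 2.09e-15). For both, the highest MEKi_4OHT library was far below the lowest 4OHT library. Fosb (-5.89 ± 0.27), Fosl1 (-4.24 ± 0.17) and Junb (-3.88 ± 0.14, overlapping Prdx2) were also called lower, and Jun fell less (-1.63 ± 0.15). Atf3, a stress-responsive factor, was higher, with 10.4, 6.39 and 6.76 CPM in MEKi_4OHT and 3.67, 1.9 and 2.11 CPM in 4OHT (log2 fold change 1.57 ± 0.28, adjusted p = 3.91e-05). Jdp2, which dimerizes with JUN and represses AP-1 activity, was higher at 29.9, 29.3 and 30.9 CPM in MEKi_4OHT and 9.04, 7.24 and 5.98 CPM in 4OHT (log2 fold change 2.00 ± 0.17, adjusted p = 4.63e-10). Jund gave no call (-0.26 ± 0.32, adjusted p = 0.513).

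ETS factors carry the ERK signal to DNA, and the PEA3 group, Etv1, Etv4 and Etv5, are themselves ERK targets. Of 12 tested members 8 were called lower and none higher (median -0.63); with library totals 5 were lower and 3 higher (median -0.29). Etv4 had 2.0, 2.6 and 2.65 CPM in MEKi_4OHT and 54.2, 53.1 and 50.2 CPM in 4OHT (log2 fold change -4.44 ± 0.14, adjusted p = 7.04e-18). Etv1 had 17.1, 13.8 and 13.4 CPM in MEKi_4OHT and 113, 94.1 and 123 CPM in 4OHT (log2 fold change -2.90 ± 0.12, adjusted p = 6.78e-16). Etv5, at 184, 165 and 144 CPM in MEKi_4OHT and 591, 574 and 589.7 CPM in 4OHT, fell by less on the log2 scale (-1.83 ± 0.07). In all 3 genes the groups did not overlap. Elk4, a partner of SRF, was lower too (-1.02 ± 0.09), and Ets2 gave 46.8, 47.8 and 51.6 CPM in MEKi_4OHT and 47.3, 49 and 46.9 CPM in 4OHT with no call (log2 fold change 0.03 ± 0.09, adjusted p = 0.778).

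Among 24 other immediate early genes, 17 were called lower and 2 higher (median -1.65). With library totals 15 were lower and 6 higher (median -1.30), and with clone as a block 17 were lower and 4 higher. Phlda1, a pleckstrin homology protein, had 0.76, 0.599 and 1.18 CPM in MEKi_4OHT and 183, 192 and 181 CPM in 4OHT (log2 fold change -7.75 ± 0.16, adjusted p = 1.82e-21; its reads overlap Gm28592). Arc, a cytoskeleton-associated protein known from neurons, had 13.2, 12.8 and 14.7 CPM in MEKi_4OHT, 671, 839.9 and 824 CPM in 4OHT and 12.8 and 17.3 CPM in DMSO. The MEKi_4OHT and DMSO libraries overlapped, and both lay far below 4OHT (log2 fold change over 4OHT -5.84 ± 0.11, adjusted p = 1.27e-21). Myc, a growth-promoting factor, had 1.52, 1.1 and 1.27 CPM in MEKi_4OHT and 65.2, 71.7 and 54.4 CPM in 4OHT (log2 fold change -5.60 ± 0.22, adjusted p = 4.35e-16). Klf6 (-2.56 ± 0.11), Klf10 (-2.68 ± 0.17), Nr4a1 (-2.20 ± 0.10), Ier2 (-1.63 ± 0.10) and Mcl1 (-1.08 ± 0.07), a survival protein, followed with smaller falls. Klf2, a factor of the naive state as well, was higher, at 126, 128 and 147 CPM in MEKi_4OHT and 48.1, 59.3 and 67.8 CPM in 4OHT (log2 fold change 1.20 ± 0.18, adjusted p = 3.68e-05). Btg2 was called higher (0.30 ± 0.12, adjusted p = 0.0419) and Srf lower (-0.54 ± 0.19, adjusted p = 0.0207), but both calls were lost in several settings, Btg2 with DESeq2 (adjusted p = 0.078) and Srf with library totals (adjusted p = 0.39).

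The 3 tested proteins of the TTP family, which bind AU-rich elements and promote mRNA decay, were all lower, with log2 fold changes of -2.94 for Zfp36l2, -2.54 for Zfp36l1 and -2.29 for Zfp36. Zfp36l1 had 24, 23.9 and 24.6 CPM in MEKi_4OHT and 131, 146 and 147 CPM in 4OHT. Id3 and Id1, which block basic helix-loop-helix factors, were lower as well. Id3 had 0.38, 0.499 and 0.294 CPM in MEKi_4OHT and 31.5, 29.99 and 27.5 CPM in 4OHT (log2 fold change -6.20 ± 0.27, adjusted p = 3.09e-15). Bmp4, a secreted ligand upstream of ID genes, had 1.9, 3.29 and 2.94 CPM in MEKi_4OHT and 47, 52.9 and 54.7 CPM in 4OHT (log2 fold change -4.24 ± 0.19, adjusted p = 4.78e-15). Bmp4 overlaps Gm15217, so its reads are uncertain. In the BMP, SMAD and ID list 6 of 12 were called lower and 4 higher, beside 28.4% each way over all genes. The inhibitory SMAD genes were on either side, Smad7 lower (-1.98 ± 0.09) and Smad6 higher (1.33 ± 0.11).

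Secreted and membrane growth factors split, with 7 of 13 tested called lower and 5 higher (median -0.76; 5 each way with library totals). Hbegf, an EGF receptor ligand, had 20.8, 21 and 24.2 CPM in MEKi_4OHT and 559.5, 652 and 671 CPM in 4OHT (log2 fold change -4.83 ± 0.11, adjusted p = 5.89e-20). Plaur, the urokinase receptor, had 32, 35.8 and 31.4 CPM in MEKi_4OHT, 846, 861 and 852 CPM in 4OHT and 37.9 and 29.5 CPM in DMSO. Its MEKi_4OHT and DMSO values interleaved. Fgf4, the main FGF made by these cells, was higher, at 322, 307 and 314 CPM in MEKi_4OHT and 93.2, 102 and 93.4 CPM in 4OHT (log2 fold change 1.71 ± 0.09, adjusted p = 5.09e-14). Lif was higher too (1.45 ± 0.20).

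In the RAS, RAF, MEK and ERK list, 11 of 24 were called lower and 6 higher (median -0.25). With library totals 6 were lower and 8 higher (median 0.13), and without 4OHT clone b the median was 0.01, so no direction is given for the list. Kit, a receptor tyrosine kinase, was higher, at 208, 184 and 208 CPM in MEKi_4OHT and 52.7, 60.3 and 50.6 CPM in 4OHT (log2 fold change 1.88 ± 0.08, adjusted p = 1.47e-15). Egfr (1.46 ± 0.14) and Fgfr1 (1.05 ± 0.08) were higher as well, while Braf (-1.19 ± 0.08) was lower. Map2k1, the MEK1 gene, was called lower (-0.45 ± 0.07, adjusted p = 5.89e-06), a call lost with library totals. Mapk3, a deleted gene, had 7.6, 16.3 and 14.5 CPM in MEKi_4OHT and 9.93, 15.5 and 15.1 CPM in 4OHT, with overlapping groups and no call (log2 fold change -0.06 ± 0.25, adjusted p = 0.845).

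Pluripotency factors moved in both directions. Of 22 tested naive factors 9 were called higher and 10 lower (median -0.05); with library totals 9 were higher and 7 lower and the median was 0.32, when the median of all genes was 0.40. Nanog, a homeodomain factor of the naive network, had 464, 403 and 462 CPM in MEKi_4OHT and 133, 185 and 131 CPM in 4OHT (log2 fold change 1.57 ± 0.12, adjusted p = 4.82e-09). Prdm14, which represses FGF signalling and de novo DNA methylation, had 36.4, 30.2 and 34.4 CPM in MEKi_4OHT and 4.27, 7.24 and 5.16 CPM in 4OHT (log2 fold change 2.65 ± 0.15, adjusted p = 3.76e-13). Their groups did not overlap. Tfcp2l1 (1.31 ± 0.19), Klf4 (0.85 ± 0.07), Tbx3 (0.70 ± 0.11) and Fbxo15 (1.77 ± 0.09, overlapping Timm21) were higher too. Esrrb was called at a small size (0.18 ± 0.07, adjusted p = 0.0353), a call lost with DESeq2 (adjusted p = 0.053).

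Klf5, Dppa2 and Gbx2 stood on the other side. Klf5, a Kruppel-like factor of pluripotent cells, had 148, 139.5 and 139 CPM in MEKi_4OHT and 755, 732 and 784 CPM in 4OHT (log2 fold change -2.41 ± 0.07, adjusted p = 1.76e-18). Dppa2 had 15.8, 20.5 and 17.2 CPM in MEKi_4OHT and 91.5, 105 and 104 CPM in 4OHT (log2 fold change -2.49 ± 0.10, adjusted p = 6.21e-16). Gbx2 was low in both groups, at 0.855, 0.699 and 0.49 CPM in MEKi_4OHT and 5.46, 4.31 and 4.57 CPM in 4OHT (log2 fold change -2.80 ± 0.39, adjusted p = 1.39e-06). Zfp42, known as Rex1, was lower (-0.81 ± 0.06). Of 12 core factors 6 were called lower and 2 higher (median -0.35), against 3 lower and 4 higher with library totals (median 0.01). Pou5f1, the gene of OCT4, had 119, 112 and 127 CPM in MEKi_4OHT and 191, 309.6 and 239.5 CPM in 4OHT (log2 fold change -1.04 ± 0.25, adjusted p = 0.00344). Its 4OHT libraries were spread more widely than its MEKi_4OHT libraries. Sox2 was called lower (-0.50 ± 0.10, adjusted p = 0.000117), a call lost with library totals (adjusted p = 0.36).

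**Figure D3:**
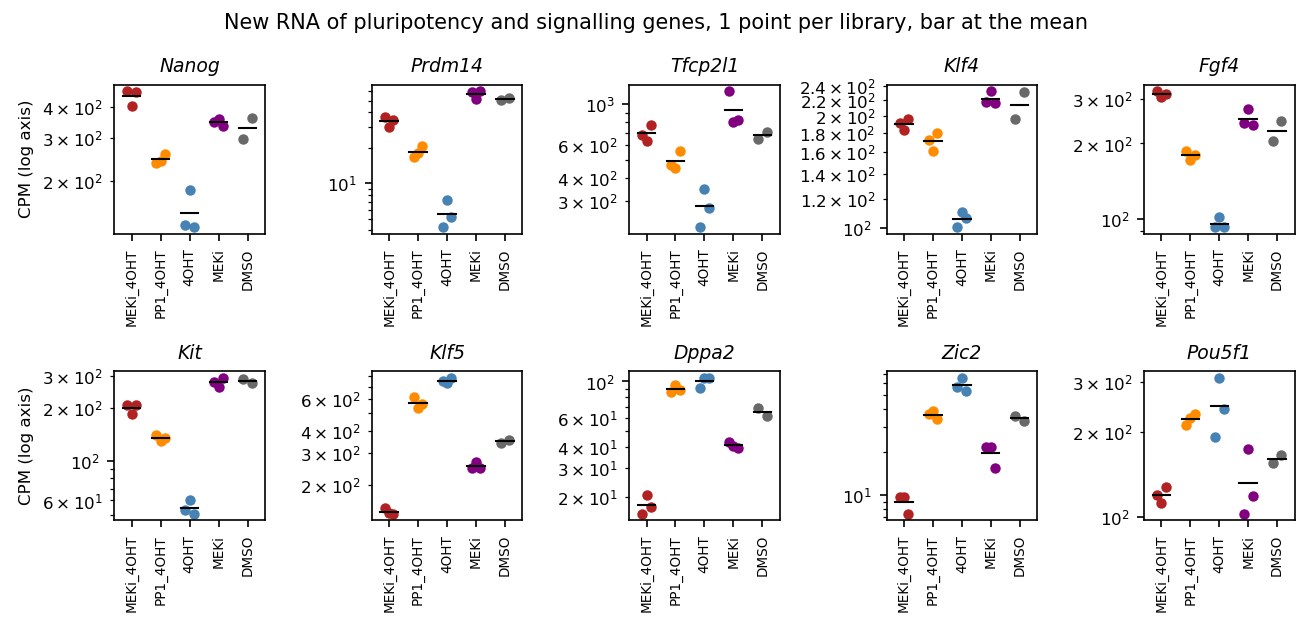
New RNA of 10 pluripotency and signalling genes in CPM (vertical log axis), 1 point per library and a bar at the mean, for MEKi_4OHT, PP1_4OHT, 4OHT, MEKi and DMSO. Nanog, Prdm14, Tfcp2l1, Klf4, Fgf4 and Kit are higher in every MEKi_4OHT library than in any 4OHT library, and Klf5, Dppa2, Zic2 and Pou5f1 are lower.

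Factors of the formative and primed epiblast, the states that follow the naive one, were lower in 10 of 18 tested and higher in 2 (median -1.12). Pou3f1, known as OCT6, had 0.57, 0.998 and 0.882 CPM in MEKi_4OHT and 23, 22.9 and 19.2 CPM in 4OHT (log2 fold change -4.71 ± 0.28, adjusted p = 8.88e-13). Zic2 had 9.69, 9.78 and 7.45 CPM in MEKi_4OHT and 56.6, 65.5 and 52.9 CPM in 4OHT (log2 fold change -2.69 ± 0.14, adjusted p = 1.28e-13). Dnmt3a, a de novo DNA methyltransferase, had 28, 31.8 and 27.1 CPM in MEKi_4OHT and 137, 126 and 136 CPM in 4OHT (log2 fold change -2.20 ± 0.10, adjusted p = 8.98e-15). All 3 genes had separate groups. Sox4 was lower (-2.02 ± 0.15) and Tead2 higher (0.86 ± 0.12). Otx2 gave 12.2, 10.3 and 15.8 CPM in MEKi_4OHT and 13, 17.4 and 17.9 CPM in 4OHT with no call (log2 fold change -0.33 ± 0.17, adjusted p = 0.111); with clone as a block it was called (adjusted p = 0.045). Fgf5 was near 1 CPM in both groups and was not called (-0.70 ± 0.43, adjusted p = 0.171).

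Of 16 tested primitive endoderm genes 10 were called higher and 3 lower (median 1.12). Lama1, a laminin chain, had 319, 298 and 291 CPM in MEKi_4OHT and 109, 124 and 104 CPM in 4OHT (log2 fold change 1.44 ± 0.08, adjusted p = 9.78e-14). Sparc (-1.75 ± 0.12) and Lamb1 (-1.54 ± 0.10), matrix genes of the same list, were lower. Gata6, a defining factor of this lineage, was at 3.8, 4.39 and 3.14 CPM in MEKi_4OHT and 2.68, 1.72 and 1.41 CPM in 4OHT (log2 fold change 0.93 ± 0.32, adjusted p = 0.0155), and the call was lost without MEKi_4OHT b (adjusted p = 0.071) or 4OHT c (adjusted p = 0.10). The summed level of all 17 markers was 704 to 727 CPM in MEKi_4OHT and 658 to 742 CPM in 4OHT, so the sums overlapped, and Sox17 was not tested, with at most 12 counts. Trophoblast genes were mixed (2 higher and 5 lower of 11; 3 and 4 with library totals). Tfap2c was higher (1.67 ± 0.19) and Tead4 lower (-1.82 ± 0.09), and Cdx2 held 2 counts in MEKi_4OHT and 163 in 4OHT, a ratio of 4OHT over MEKi_4OHT of 103 with an exact 95% counting interval of 28 to 855. Of 6 tested fibroblast markers 2 were higher and 2 lower, beside 28.4% each way over all genes. Among them were Fn1 (1.17 ± 0.20) and Vim (-3.17 ± 0.18).

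Lefty1, a secreted inhibitor of Nodal, was among the largest rises. It had 66.6, 73.2 and 103 CPM in MEKi_4OHT and 1.39, 8.79 and 3.98 CPM in 4OHT (log2 fold change 4.27 ± 0.41, adjusted p = 1.88e-06). The 4OHT libraries were uneven but all far below the MEKi_4OHT libraries. Lefty2 (2.12 ± 0.38) was higher, and Skil, which encodes a repressor of SMAD activity, was lower (-2.28 ± 0.07). In the Nodal and Lefty list 6 of 10 were called higher and 3 lower (7 and 2 with library totals). Over all genes 28.4% were called each way.

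Outside the lists, the rule of the 15 largest rises took Tex26 (5.04 ± 0.39), Ropn1 (4.22 ± 0.43), Rasgef1a (4.02 ± 0.25), Tha1 (3.93 ± 0.30), Atp6v0a4 (3.77 ± 0.26), Hoxc12 (3.72 ± 0.32), Rassf4 (3.66 ± 0.30), Slc2a2 (3.57 ± 0.50), Fbln5 (3.56 ± 0.40), Gpr139 (3.55 ± 0.25), Scn9a (3.47 ± 0.39), Cfc1 (3.43 ± 0.52), Rab3il1 (3.42 ± 0.25) and Sh2d4a (3.36 ± 0.25), besides Lefty1. Most were low in 4OHT. Rasgef1a, which encodes an exchange factor for RAS-like GTPases, had 37.8, 31.1 and 36.5 CPM in MEKi_4OHT and 0.894, 2.76 and 3.16 CPM in 4OHT. Hoxc12 had 13, 10.4 and 15.8 CPM in MEKi_4OHT and 1.29, 1.03 and 0.586 CPM in 4OHT. Its neighbour Hoxc13 (ENSMUSG00000001655.6, mm10 chr15:102921103-102928814), looked at after the value of Hoxc12 was seen, had 24.9, 19 and 21.9 CPM in MEKi_4OHT and 2.78, 2.07 and 1.64 CPM in 4OHT (log2 fold change 3.31 ± 0.26, adjusted p = 4.07e-10). Both HOX genes encode homeodomain factors, and both had groups that did not overlap. Tex26, with 0 counts in 4OHT clone b and 5 in all 4OHT libraries, and Cfc1, with 0 in clone c and 8 in all, have fitted fold changes that depend on few counts, as do Ropn1 (8 in all) and Slc2a2 (6 in all). Tex26, Tha1, Atp6v0a4 (Tmem213), Rassf4 (Depp1), Slc2a2, Scn9a and Cfc1 (Prss40) overlap another annotated gene, so their reads are uncertain.

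The 15 largest falls included, besides list members, Nrp2 (-5.95 ± 0.21), a receptor of semaphorins and VEGF, Pla2g7 (-5.84 ± 0.14), Serpinb9b (-5.78 ± 0.14), Gsg1 (-5.72 ± 0.28), Cyth4 (-5.89 ± 0.37) and Ankrd63 (-6.39 ± 0.49). Nrp2 had 6.93, 12 and 9.51 CPM in MEKi_4OHT and 545, 572 and 636 CPM in 4OHT. Pla2g7, a secreted phospholipase, had 5.22, 4.19 and 6.57 CPM in MEKi_4OHT and 318, 284 and 319 CPM in 4OHT. The groups were fully separate for both. Ankrd63 had 0 counts in MEKi_4OHT clone c, so its fitted fold change depends on few counts. Nrp2, Pla2g7, Serpinb9b and Gsg1 (Fam234b) overlap another gene and are uncertain in the same way. So are many of the other genes named, since the strand setting is not given: Errfi1, Dusp1, Dusp5, Dusp8, Dusp16, Fosl1, Jun, Junb, Jund, Jdp2, Elk4, Srf, Zfp36, Zfp36l1, Zfp36l2, Egfr, Fgfr1, Braf, Map2k1, Tbx3, Fbxo15, Gbx2, Sox2, Pou5f1, Otx2, Pou3f1, Dnmt3a, Sox4, Tead2, Gata6, Fn1, Fdft1, Rrm2b, Ddit3, Ccnd1, Ccnd2, Arhgap8, St8sia1 and Azin2.

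All 25 called members of the ribosome biogenesis list, of 30 tested, were lower (median -0.57), among them Ddx21 (-1.01 ± 0.11) and Npm1 (-0.72 ± 0.10); with library totals 8 were called lower, none higher, and the median was -0.21. Of 25 cell cycle genes 19 were lower and 2 higher (median -0.48; 4 and 4 with library totals). Ccnd1, a cyclin of G1, was higher at 49.96, 50.6 and 49.7 CPM in MEKi_4OHT and 9.53, 16.2 and 13.1 CPM in 4OHT (log2 fold change 1.99 ± 0.16, adjusted p = 4.7e-10). Ccnd2, its relative, was lower at 1.52, 3.59 and 1.27 CPM in MEKi_4OHT and 29.4, 30.7 and 18.5 CPM in 4OHT (log2 fold change -3.61 ± 0.44, adjusted p = 5.12e-06). The 2 cyclins thus changed in opposite directions. Of 19 cholesterol synthesis genes 13 were lower and 1 higher (5 and 2 with library totals). Heat shock chaperones were lower in 8 of 14 and higher in none (4 and 1 with library totals), with Hsph1 at -1.45.

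NRF2 targets, genes of the antioxidant response, were lower in 7 of 10 tested and higher in none (median -1.15). Srxn1, sulfiredoxin, had 29.7, 32.2 and 33.4 CPM in MEKi_4OHT and 421, 395 and 395 CPM in 4OHT (log2 fold change -3.67 ± 0.10, adjusted p = 5.3e-19). Hmox1 (-2.46 ± 0.10) and Gclc (-1.79 ± 0.08) were lower, while Nqo1, a usual member of the group, had 88.2, 79.2 and 94.1 CPM in MEKi_4OHT and 94.4, 87.2 and 103 CPM in 4OHT and gave no call (-0.13 ± 0.10, adjusted p = 0.278). Of 20 p53 targets 11 were higher and 5 lower (median 0.29), against 13 higher and 2 lower with library totals (median 0.65) and 28.4% each way over all genes. Among them were Rrm2b (1.51 ± 0.19) and, lower, Perp (-2.09 ± 0.22). Ddit3, a stress factor, was lower (-2.56 ± 0.18). Of 24 elongation and Mediator genes 14 were lower and 1 higher (median -0.33), against 7 lower and 2 higher with library totals (median 0.02). Of the other lists, SRF and actin targets had 8 lower and 2 higher of 17, the LIF and STAT3 pathway 6 lower and 4 higher of 12, integrated stress genes 8 lower and 3 higher of 20, Wnt targets 3 each way of 10, replication-dependent histones 3 higher and none lower of 15, primitive streak genes 3 lower and 1 higher of 7 and neuroectoderm genes 2 lower and 3 higher of 6. With library totals SRF and actin targets were 4 each way, the LIF and STAT3 pathway 4 lower and 5 higher, integrated stress genes 5 lower and 6 higher, Wnt targets 2 lower and 4 higher, histones 7 higher and none lower and primitive streak genes 2 each way, while neuroectoderm genes again had 2 lower and 3 higher. Without 4OHT clone b SRF and actin targets were 3 each way, so no direction is given for these lists.

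**Figure D4:**
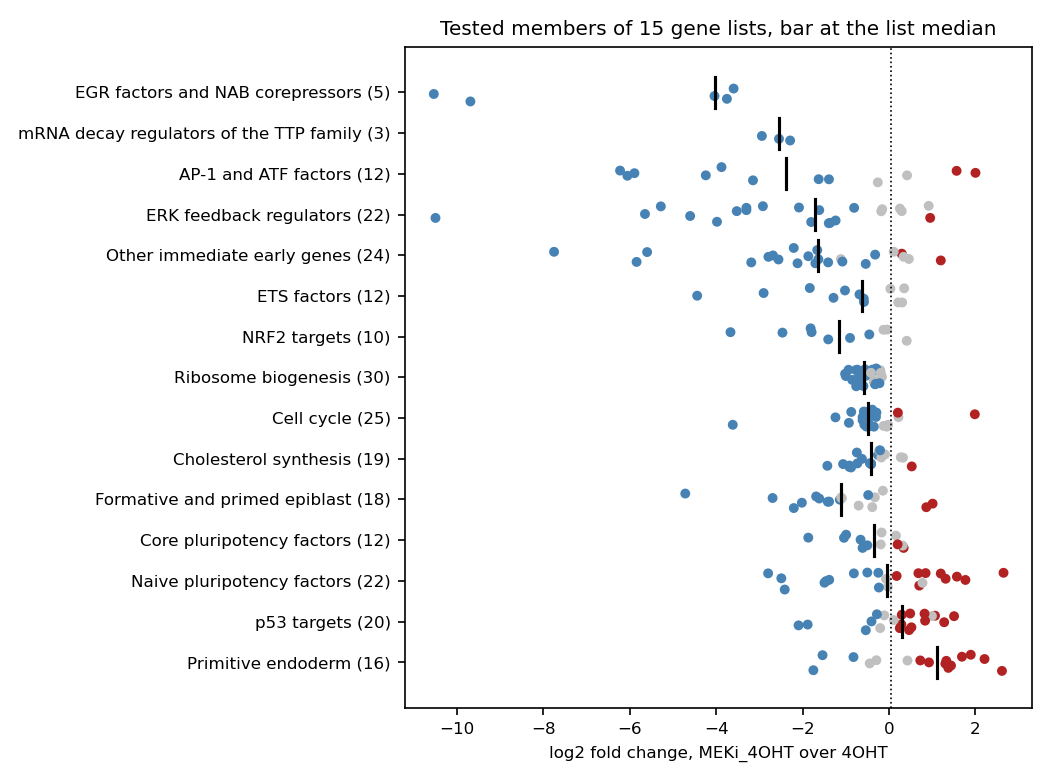
Log2 fold change of MEKi_4OHT over 4OHT (horizontal axis) for the tested members of 15 lists (vertical axis, number tested in parentheses), with members called lower in blue, called higher in red and not called in grey, a bar at each list's median and a dotted line at the median of all genes, 0.06. The EGR list has its median at -4.04 and primitive endoderm at 1.12; with library totals the core and naive medians turned to 0.01 and 0.32.

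Levels with the inhibitor were then set against cells that received no 4OHT. MEKi_4OHT enters this comparison, the next one and the one above, so they are not independent. Against DMSO, 785 genes (5.27%) were called higher and 1126 (7.55%) lower. With library totals the numbers were 268 higher and 262 lower. Of the 22 feedback regulators 10 were called lower and none higher, of the EGR list 1 of 5 lower, and of the naive list 11 of 22 lower and 1 higher. Spry4 was lower than in DMSO (log2 fold change -6.15 ± 0.14, adjusted p = 2.14e-19), as were Egr1 (-5.30 ± 0.22, adjusted p = 7.79e-12), Id3 (-4.95 ± 0.31), Myc (-4.13 ± 0.24) and Dusp6 (-3.80 ± 0.14). Myc, for example, had 1.52, 1.1 and 1.27 CPM in MEKi_4OHT and 20.1 and 26 CPM in DMSO. These genes were therefore below the level of cells without 4OHT, in every library.

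Other genes did not differ detectably from DMSO. Arc gave -0.14 ± 0.13, adjusted p = 0.57, Plaur -0.03 ± 0.17, adjusted p = 0.939, Srxn1 0.19 ± 0.12, adjusted p = 0.331, Nab2 0.31 ± 0.14, adjusted p = 0.169 and Dusp16 -0.07 ± 0.10, adjusted p = 0.711. A missed threshold does not show that the levels were equal. Hbegf was somewhat lower than in DMSO (-0.67 ± 0.12, adjusted p = 0.00053), and so was Dusp5 (-0.77 ± 0.17, adjusted p = 0.00296); both calls were lost with library totals. Nanog was called higher (0.43 ± 0.13, adjusted p = 0.0441), a call lost with clone as a block (adjusted p = 0.099), without any 1 library of either group (adjusted p 0.056 to 0.47) and with library totals (adjusted p = 0.078). Prdm14 (-0.63 ± 0.12, adjusted p = 0.00112), Kit (-0.49 ± 0.08, adjusted p = 0.000148) and Klf5 (-1.30 ± 0.07, adjusted p = 7.79e-12) were lower, but with library totals the calls of Prdm14 and Kit were lost. Cholesterol synthesis genes stood above DMSO in 9 of 19 and below it in none, with Msmo1 at 0.76 ± 0.12 and Fdft1 at 0.68 ± 0.10. The largest rises by rule were Foxi3 (2.03 ± 0.37), Tgfb1i1 (1.93 ± 0.35), Gsn (1.53 ± 0.32), Elfn1 (1.49 ± 0.34) and Cacng5 (1.48 ± 0.37). The call of Elfn1 was lost without DMSO c (adjusted p = 0.084) and that of Cacng5 without either DMSO library (adjusted p 0.08 and 0.09).

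MEKi_4OHT was also set against PP1_4OHT, the same activation with PP1. In MEKi_4OHT 1936 genes (13.0%) were higher and 2263 (15.2%) lower. With library totals 1492 were higher and 661 lower. Feedback regulators were lower in 13 of 22 and higher in 2, and all 5 tested EGR and NAB genes were lower. Spry4 had 1.52, 2.2 and 1.08 CPM in MEKi_4OHT and 837, 729.7 and 758 CPM in PP1_4OHT (log2 fold change -8.91 ± 0.14, adjusted p = 1.4e-23). Egr1 had 0.95, 1.2 and 1.57 CPM in MEKi_4OHT and 181, 181 and 166 CPM in PP1_4OHT (log2 fold change -7.14 ± 0.20, adjusted p = 4.87e-15). Every MEKi_4OHT library lay far below every PP1_4OHT library for both. Etv4 (-4.32 ± 0.14), Etv1 (-3.03 ± 0.12), Spry2 (-2.81 ± 0.09) and Dusp6 (-4.81 ± 0.13) were lower. Etv1 had 17.1, 13.8 and 13.4 CPM in MEKi_4OHT, against 119, 121 and 123 CPM in PP1_4OHT and 113, 94.1 and 123 CPM in 4OHT.

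Other targets were low with either inhibitor. Fosb (-0.92 ± 0.41, adjusted p = 0.0951), Cyth4 (-0.62 ± 0.59, adjusted p = 0.469), Dnmt3a (0.05 ± 0.11, adjusted p = 0.792) and Dusp16 (-0.04 ± 0.09, adjusted p = 0.78) gave no call between MEKi_4OHT and PP1_4OHT. Dnmt3a had 28, 31.8 and 27.1 CPM in MEKi_4OHT, 29.9, 29.1 and 24.8 CPM in PP1_4OHT and 137, 126 and 136 CPM in 4OHT. Both inhibitor groups were thus below 4OHT for this gene. Nanog (0.85 ± 0.12), Prdm14 (0.87 ± 0.12), Fgf4 (0.81 ± 0.08) and Kit (0.56 ± 0.07) were higher in MEKi_4OHT than in PP1_4OHT. The largest rises over PP1_4OHT were Foxi3 (2.91 ± 0.36), Spic (2.66 ± 0.29), Atp6v0a4 (2.53 ± 0.21), Cyp4f39 (2.52 ± 0.37) and Cacng5 (2.41 ± 0.37). The doses and targets of the 2 inhibitors differ, and the design has 1 dose of each.

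**Figure D5:**
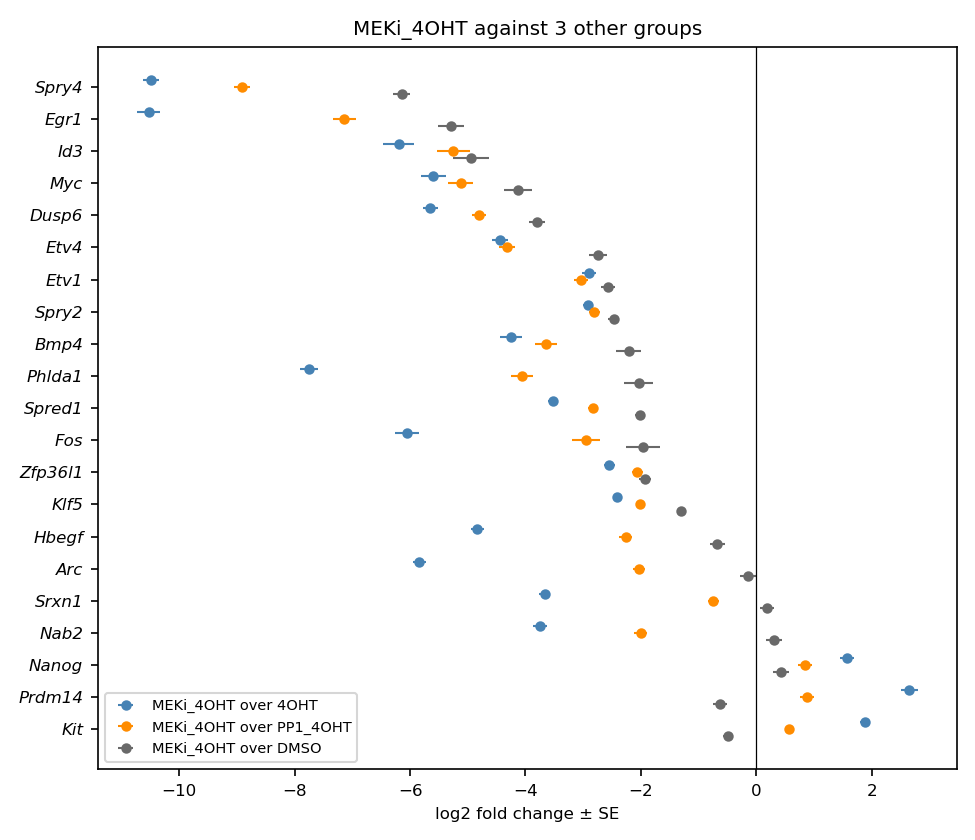
Log2 fold change ± SE (horizontal axis) of MEKi_4OHT over 4OHT, over PP1_4OHT and over DMSO for 21 genes (vertical axis). Spry4, Egr1, Id3, Myc and Dusp6 are below 0 against all 3 groups, while Arc and Nab2 are far below 0 against 4OHT and near 0 against DMSO.

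Whether the inhibitor acted differently once RAF was on was tested as the effect with 4OHT minus the effect without it, MEKi against DMSO. The interaction was called higher in 3147 genes (21.1%) and lower in 2875 (19.3%); with library totals the numbers were 4754 and 742. The inhibitor lowered Spry4 more with 4OHT than without (difference -7.79 ± 0.19, adjusted p = 4.14e-19). Without 4OHT it already lowered Spry4, with 16.4, 19.3 and 17 CPM in MEKi and 107 and 120.4 CPM in DMSO (log2 fold change -2.70, adjusted p = 3.43e-14). In MEKi_4OHT Spry4 had 1.52, 2.2 and 1.08 CPM, below every MEKi library. The difference for Spry4 thus holds both this lower level and the higher level with 4OHT alone. How long the inhibitor was given in MEKi is not clear, and its part was not tested. Arc (-5.66 ± 0.18), Pla2g7 (-5.59 ± 0.22), Hbegf (-4.50 ± 0.17) and Spred1 (-3.03 ± 0.12) had large negative differences. Kit (1.90 ± 0.11), Mcf2 (2.55 ± 0.14), Arhgap8 (2.88 ± 0.17), St8sia1 (2.60 ± 0.16) and Azin2 (2.30 ± 0.14) had positive ones. Kit, for instance, had 208, 184 and 208 CPM in MEKi_4OHT and 52.7, 60.3 and 50.6 CPM in 4OHT, and 277, 261 and 294 CPM in MEKi and 288 and 274 CPM in DMSO. For Kit the MEKi and DMSO libraries overlapped (log2 fold change -0.02, adjusted p = 0.961).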

How the data were processed

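New RNA, labelled with ethynyl uridine, was measured in 17 libraries. The deposited table holds counts per gene symbol, whole numbers with no normalization by the authors. Per the submitters' processing notes, STAR and featureCounts were used with mm10. The sources used here do not give their versions, the annotation, the strand setting or how multi-mapped reads were counted.

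All 17 columns were used. The fit was made by edgeR 4.0.16 under R 4.3.3, with TMM factors, the filterByExpr filter and a robust quasi-likelihood model that had a term for each group and took in all libraries. The biological coefficient of variation was 0.098 in common, on 11 residual degrees of freedom, and 14907 of 25899 symbols were tested in each of 4 comparisons. SE is the absolute log2 fold change over the square root of F. Totals per library (7680990 to 10349066 in the 2 main groups) set the precision: 3 counts are 0.285 to 0.517 CPM there. Positions and identifiers are from GENCODE M21, matched for 98.8% of symbols; promoters are from RefSeq.

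Genes were named by rule: the 15 largest rises and 15 largest falls among calls alike in all 3 clones (mean log2 CPM 1 or more), up to 4 called members of each of 32 lists, any member of the signalling and pluripotency lists, and 5 and 5 in the other comparisons. The members, lists and rules were chosen with earlier results of these data known. Replicates are clones a, b and c by label, so the groups are paired by clone. Deviations of same-clone libraries correlated at a mean of 0.0859 over 40 pairs, against -0.0425 over 80 pairs of different clones. For MEKi_4OHT and 4OHT the means were 0.09 (3 pairs) and -0.0445 (6 pairs). Deviations were taken from group means, so a positive mean for same-clone pairs goes with a negative mean for different clones. The values for different clones are therefore not an independent reference. Alternatives were other scalings, filters, DESeq2 1.42.0, limma-voom (limma 3.58.1), clone as a block, only the libraries compared, and leaving out each library. Some genes are not reported here.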

Additional observations from a re-analysis of the deposited data

Results flagged for a closer look

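The effect of the MEK inhibitor differed between cells with and without 4OHT for the 10 genes named by rule among the many called, by the interaction term of the edgeR fit. With 4OHT the effect of the inhibitor was more negative for Spry4 (difference of log2 effects -7.79), Arc (-5.66), Pla2g7 (-5.59), Hbegf (-4.50) and Spred1 (-3.03). It was more positive with 4OHT for Arhgap8 (2.88), St8sia1 (2.60), Mcf2 (2.55), Azin2 (2.30) and Kit (1.90). Without 4OHT the inhibitor changed 2 of these genes past the threshold, Spry4 (log2 fold change -2.70) and Spred1 (-0.49). How long the inhibitor was given in those cells is not clear from the labels, and its part in the differences was not tested.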

How the results depend on the processing

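Of 217 gene results examined, 188 kept their direction and side of the threshold in every setting run; 17 lost their call in some setting, 2 gained one and 11 changed direction, none of these 11 called in the fit reported; Otx2 is counted under both of the last. With library totals the direction changed for Spry1 (0.19), Jund (0.11), Mapk3 (0.29), Otx2 (0.02), Nqo1 (0.22), Plaur against DMSO (0.02) and Dusp16 against PP1_4OHT (0.08). With 1 library left out it changed for Ets2 (-0.02 to 0.04), Mapk3 (-0.30 to 0.19), Arc against DMSO (-0.35 to 0.11), Plaur against DMSO (-0.18 to 0.17), Dusp16 against DMSO (-0.16 to 0.05), Dusp16 against PP1_4OHT (-0.11 to 0.03) and Dnmt3a against PP1_4OHT (-0.03 to 0.11). The cause was not tested.

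Counts of calls moved by over 1.5 times as follows. Library totals gave 1465 called lower against 4OHT; 530 against DMSO (268 higher, 262 lower); 2153 against PP1_4OHT (661 lower); and 4754 higher and 742 lower for the interaction. Calls of at least 2-fold were 2946 against 4OHT (1882 higher, 1064 lower), 311 against DMSO (106, 205), 976 against PP1_4OHT (611, 365) and 2572 for the interaction (1577, 995). With only the libraries compared, 1239 were called higher against DMSO. Leaving out 1 library gave 7672 to 8106 calls against 4OHT, a change of less than 1.5 times. Against DMSO it gave 814 to 1508 calls (higher 292 to 673, lower 522 to 889). These moved by over 1.5 times only when a DMSO library was left out. The lowest came without DMSO clone b, and 1264 without DMSO clone c (482 higher).

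With clone as a replicate block, calls were 8773 against 4OHT, 2333 against DMSO, 4764 against PP1_4OHT and 6353 for the interaction, and 99.8% of the unblocked calls against 4OHT were shared, 0 in the opposite direction. Among the genes named, the block ended the call of Nanog against DMSO and gave one to Otx2. Genes near 3 counts in a library are limited by depth.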
